A study of Mus musculus with 2 samples.

Results

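The transcriptional effectors of Hippo signalling were followed in mouse lung epithelial cells: the co-activators Yap1 and Wwtr1, the DNA-binding partners Tead1, Tead2, Tead3 and Tead4, and the cofactors Vgll1, Vgll3 and Vgll4. They were chosen by name, as all 9 listed genes of these families, and their probes were found through the RefSeq accession that the array files give for each probe. This gave 13 probes for the 9 genes, out of 55681 probes that were not controls and 20660 genes that could be named. RNA came from cells labelled Mob1DKO, with 1 array, and from cells labelled wild type (WT), with 1 array. Both groups were C57BL/6 mice of 10 weeks. Mob1DKO is not spelled out in the labels and is read here as loss of both Mob1a and Mob1b. The alleles, the promoter or Cre line behind the deletion, the sex and number of the mice and the way the cells were isolated are not stated in the labels.

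The Hippo pathway is a kinase cascade in which MOB1 proteins bind and activate the LATS kinases. Active LATS phosphorylates YAP (encoded by Yap1) and TAZ (encoded by Wwtr1), which are then held in the cytoplasm or degraded. Unphosphorylated YAP and TAZ enter the nucleus and bind TEAD proteins, which carry the DNA-binding domain that the co-activators lack, and VGLL proteins bind TEADs through a short vestigial-like motif and can compete with YAP and TAZ. In the lung this pathway is known for its part in epithelial growth, repair and the balance between alveolar and airway fates. The cascade acts on the YAP and TAZ proteins, and an expression array measures their messenger RNA.

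Levels are the processed fluorescence of a probe, on the log2 scale after subtracting the 75th percentile of its array, and differences are Mob1DKO minus WT. That percentile was 291 in Mob1DKO cells and 155 in WT cells, and 58.6% of probes in Mob1DKO cells and 53.1% in WT cells were well above background by the scanner software's flag. Mob1b had a processed signal of 36.9 in Mob1DKO cells, against 78.5 in WT cells, which is 4.0-fold lower after scaling, and its other probe differed by -2.70. Mob1a differed by 0.07, from a dim probe whose technical SD, explained below, was 0.49. Its raw signal was 1.63 times the local background in Mob1DKO cells and 1.39 times in WT cells. The labels do not say where this probe lies relative to a deletion. Xist, the RNA of X inactivation, differed by -2.29. Its processed signals were 105 in Mob1DKO cells and 273 in WT cells, well above background on both arrays. The Y-linked Ddx3y had a processed signal of 604 on the Mob1DKO array and was not well above background in WT cells. The sex of the mice and the genotype therefore cannot be told apart. With 1 array a group there is no replicate error and no test, and this number sets the precision. The technical error comes from probes printed at 10 spots, whose single-spot differences had an SD of 0.49 at mean levels below -2, 0.24 from -2 to 0, 0.10 from 0 to 2 and 0.061 above 2. It leaves out the spread between animals and between RNA preparations.

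The promoters are shown first, and they were searched for the sequence that TEAD proteins are known to bind. RefSeq promoter windows on build GRCm38.p6, from 250 bases before to 50 bases after a transcription start, were matched by symbol for 7 of the 9 genes, in 10 windows. Tead1 and Tead4 had no entry. Each window was searched on both strands for the core of the TEAD motif, GGAATG or its complement CATTCC, which is written in capitals below. The windows run 5′ to 3′ on the strand of the gene, with 1 window shown for each gene: chr9:8004547-8004846 (minus) for Yap1, chr3:57575861-57576160 (minus) for Wwtr1, chr17:28350551-28350850 (minus) for Tead3, chr6:114969154-114969453 (minus) for Vgll4, chr16:65814939-65815238 (plus) for Vgll3, chrX:57087856-57088155 (plus) for Vgll1 and chr7:45215542-45215841 (plus) for Tead2.
Yap1: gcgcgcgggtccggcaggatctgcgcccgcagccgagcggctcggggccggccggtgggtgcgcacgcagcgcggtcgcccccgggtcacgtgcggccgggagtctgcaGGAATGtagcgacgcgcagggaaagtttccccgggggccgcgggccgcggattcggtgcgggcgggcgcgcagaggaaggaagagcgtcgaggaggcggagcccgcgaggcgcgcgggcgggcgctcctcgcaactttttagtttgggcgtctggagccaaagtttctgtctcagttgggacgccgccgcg
Wwtr1: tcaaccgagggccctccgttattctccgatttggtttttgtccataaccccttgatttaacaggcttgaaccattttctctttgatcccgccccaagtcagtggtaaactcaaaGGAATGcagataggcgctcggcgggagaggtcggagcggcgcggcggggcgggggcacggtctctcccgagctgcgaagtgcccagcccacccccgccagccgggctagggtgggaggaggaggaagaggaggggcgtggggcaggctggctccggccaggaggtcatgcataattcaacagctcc
Tead3: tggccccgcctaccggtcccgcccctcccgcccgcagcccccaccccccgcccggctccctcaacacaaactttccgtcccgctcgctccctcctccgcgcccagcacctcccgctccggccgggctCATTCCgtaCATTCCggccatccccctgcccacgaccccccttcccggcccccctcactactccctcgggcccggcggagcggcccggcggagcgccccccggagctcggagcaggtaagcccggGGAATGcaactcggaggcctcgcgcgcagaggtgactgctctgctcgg
Vgll4: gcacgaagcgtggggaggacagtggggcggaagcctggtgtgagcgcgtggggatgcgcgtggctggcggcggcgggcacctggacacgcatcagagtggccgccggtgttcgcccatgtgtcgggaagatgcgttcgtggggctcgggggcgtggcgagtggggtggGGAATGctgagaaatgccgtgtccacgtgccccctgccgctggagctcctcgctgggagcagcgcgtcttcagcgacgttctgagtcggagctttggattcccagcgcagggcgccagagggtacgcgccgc
Vgll3: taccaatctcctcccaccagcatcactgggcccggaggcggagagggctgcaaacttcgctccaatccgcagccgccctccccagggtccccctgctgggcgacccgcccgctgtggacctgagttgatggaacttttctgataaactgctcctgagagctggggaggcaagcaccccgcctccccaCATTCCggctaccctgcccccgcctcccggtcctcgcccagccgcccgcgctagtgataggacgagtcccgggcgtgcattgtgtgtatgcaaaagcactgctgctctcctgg
Vgll1: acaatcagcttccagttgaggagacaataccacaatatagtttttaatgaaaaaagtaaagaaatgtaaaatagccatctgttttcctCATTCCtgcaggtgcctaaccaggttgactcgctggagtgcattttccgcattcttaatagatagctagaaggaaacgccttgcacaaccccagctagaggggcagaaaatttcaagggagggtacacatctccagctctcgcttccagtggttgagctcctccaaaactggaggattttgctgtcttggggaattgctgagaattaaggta
Tead2: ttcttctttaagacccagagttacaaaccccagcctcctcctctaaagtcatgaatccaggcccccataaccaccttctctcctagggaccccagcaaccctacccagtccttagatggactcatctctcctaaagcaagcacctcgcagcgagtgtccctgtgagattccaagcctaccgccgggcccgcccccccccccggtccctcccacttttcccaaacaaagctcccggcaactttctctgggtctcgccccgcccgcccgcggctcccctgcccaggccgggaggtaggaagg

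Of the 7 genes with a window, 6 held at least 1 match, against 16.6% of all 27025 genes with a window. The exception was Tead2, whose window held none. Tead3 and Wwtr1 have several windows, which gives them more letters to search. Among the 5 genes with a single window, 4 held a match, against 14.6% of all genes with a single window. The match began 141 bases before the start site in Yap1, 136 in Wwtr1, 82 in Vgll4, 63 in Vgll3 and 162 in Vgll1. Tead3 held 4 of the 9 distinct matches. In the window shown, they began 123 and 114 bases before the start site and at base 3 after it, and the fourth lay in another window, 182 bases before its own start site. The second Wwtr1 window overlaps the first and holds the same match. Among all windows with at least 15 CG pairs, 9.55% held the motif. A match of 6 letters is a description of the window and not a binding site measured here.

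The same windows differed widely in CpG sites, the CG pairs that are dense in promoters of broadly expressed genes. The Yap1 window held 49, a number reached by 1.02% of all windows. The Vgll4 window held 34 and the 3 Tead3 windows 25, 34 and 27. The Wwtr1 windows held 20 and 19, the Vgll3 window 19 and the Tead2 window 13. The Vgll1 window held 4, against a median of 7 over all windows. The median was 18 in windows of genes that passed the background flag on 1 array or both and 4 in windows of the other genes on the array. Vgll1, which gave no signal well above background, thus lay at the CpG-poor end, whereas Vgll3, which gave none either, lay at 19.

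**Figure D1:**
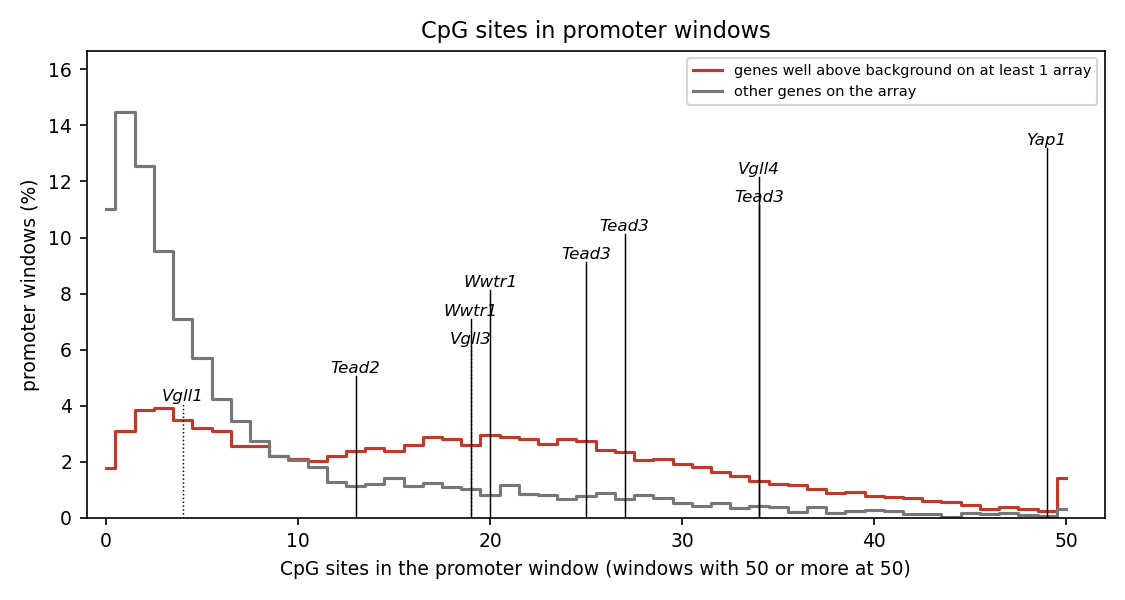
The x axis gives the number of CpG sites in a promoter window of 300 bases and the y axis the percent of windows, with a line for genes that passed the background flag on 1 array or both and a line for the other genes. Vertical lines mark the windows of the named genes (dotted for Vgll1 and Vgll3, which were not well above background; their heights only separate the labels). Yap1 stands at 49 and Vgll1 at 4.

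Of the 9 genes, 7 gave a signal well above background on both arrays: Yap1, Wwtr1, all 4 Tead genes and Vgll4. Vgll1 and Vgll3 passed that flag on neither array. Over all named genes, 67.1% were well above background on both. None of the 13 probes was saturated. Signals of different probes depend on the probe's own sequence as well as on the RNA, so the paralogues are described by their detection and by their difference between the arrays and are not ranked by level.

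Yap1 gave a processed signal of 3954 ± 395 in Mob1DKO cells and 2103 ± 210 in WT cells, where ± is the error that the scanner software assigns to a spot. The raw spot signal was 61.5 times its local background on the Mob1DKO array and 33.4 times on the WT array. Its ratio of 1.88 matched the ratio of 1.88 between the 75th percentiles of the arrays. After scaling, the level was 3.76 in Mob1DKO cells and 3.76 in WT cells, a difference of 0.00 with a technical SD of 0.061. Yap1 messenger RNA was thus as bright, relative to its array, in Mob1DKO as in WT cells within the technical error. It differed by 0.22 when a model-based background correction (normexp) with an offset of 50 replaced the scanner software's subtraction.

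Wwtr1, which encodes TAZ, gave 1239 ± 124 in Mob1DKO cells and 515 ± 51.6 in WT cells. The raw signal was 21.5 times the local background in Mob1DKO cells and 9.53 times in WT cells. The scaled level was 2.09 in Mob1DKO cells and 1.73 in WT cells. The difference of 0.36, or 1.28-fold, was 3.41 technical SDs in size. Among 1839 genes of like brightness (mean level within 0.5), 14.5% differed by at least as much in either direction. The difference was therefore larger than the repeated-spot error and of a size that many genes of that brightness showed.

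**Figure D2:**
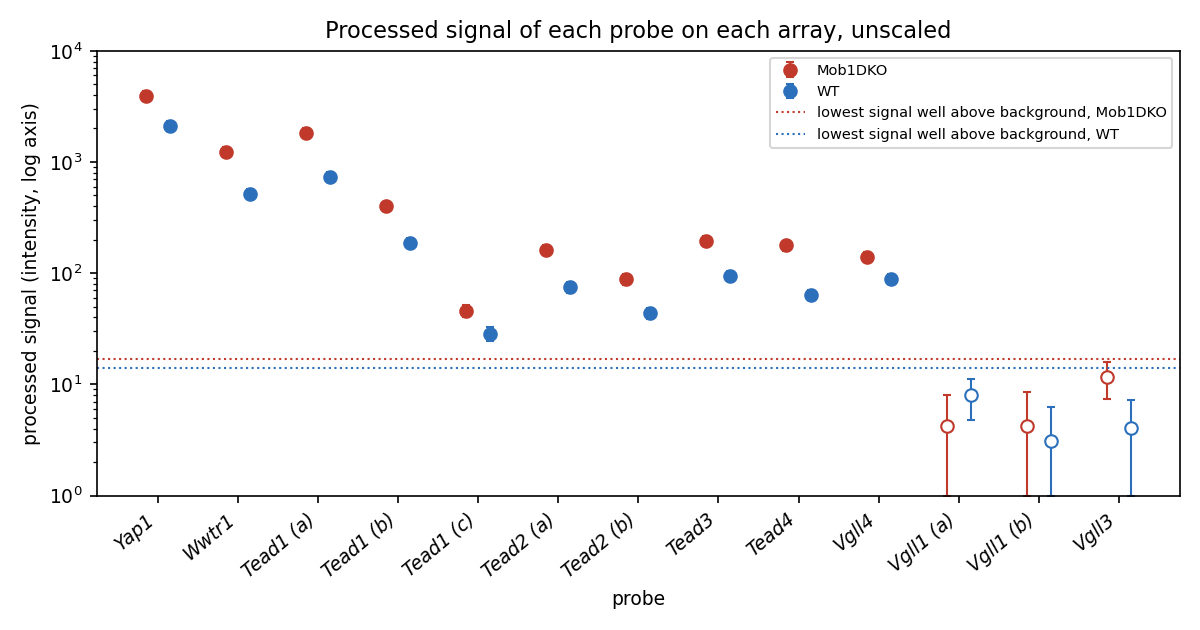
The y axis gives the processed signal of each probe on a log axis, before scaling between arrays, with Mob1DKO to the left of WT for each probe and error bars from the scanner software (cut off at 1). Open points were not well above background, and dotted lines mark the lowest signal with that flag on each array (17.0 on Mob1DKO and 14.1 on WT). All 10 probes above the lines are brighter on the Mob1DKO array, which was 1.88 times brighter at its 75th percentile.

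The 4 TEAD genes had differences from 0.15 to 0.56, each above 0. Tead4, a paralogue known for its role in trophectoderm, gave 178 ± 18.2 in Mob1DKO cells and 64.1 ± 7.01 in WT cells. Its scaled level was -0.71 in Mob1DKO cells and -1.27 in WT cells, which makes it 1.48-fold higher in Mob1DKO cells (0.56). The difference was 2.34 technical SDs in size, and 14.4% of 1767 genes of like brightness differed by as much. It was the largest among the 7 measured members with the scanner software's own background subtraction. It shrank to 0.40 under normexp with no offset, where Tead1 (0.49) and Wwtr1 (0.41) exceeded it. With the offset of 50 it shrank to 0.20, and Tead1 (0.60), Wwtr1 (0.49) and Yap1 (0.22) exceeded it.

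Tead1, a broadly expressed paralogue, was measured by 3 probes that share an accession, and they disagreed. The brightest gave 1825 ± 183 in Mob1DKO cells and 738 ± 73.9 in WT cells, a difference of 0.40 (1.32-fold). The middle probe gave 400 ± 40.3 in Mob1DKO cells and 188 ± 19.1 in WT cells, a difference of 0.18. The faintest gave 46.0 ± 5.81 in Mob1DKO cells and 28.4 ± 4.05 in WT cells, a difference of -0.22 with a technical SD of 0.49. The brightest probe's difference was 6.53 times its technical SD of 0.061, and 10.9% of 1745 genes of like brightness differed by as much. The gap of 0.61 between the Tead1 probes was reached by 24.0% of 455 genes with 3 probes that passed the flag on each array. The mean over the probes was 0.12, so the size of the Tead1 difference depends on the probe.

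Tead2, known from neural and early embryonic tissue, was measured by 2 probes that gave close differences of 0.21 and 0.10. The brighter gave 162 ± 16.8 in Mob1DKO cells and 74.7 ± 8.12 in WT cells. The fainter gave 88.2 ± 9.65 in Mob1DKO cells and 43.7 ± 5.29 in WT cells. Neither difference exceeded its technical SD of 0.24. Tead3 gave 196 ± 20.1 in Mob1DKO cells and 94.2 ± 9.96 in WT cells, a difference of 0.15 with a technical SD of 0.24. Under normexp with the offset of 50 the difference of Tead2 was -0.019 and that of Tead3 -0.073, so neither kept its sign under that setting. With that offset the difference of the dim Mob1a also fell, from 0.07 to -0.42, and that of the bright Yap1 rose to 0.22. Vgll4, also dim, moved little, from -0.24 to -0.20. The part of brightness in these moves was not tested. Differences of this size were common, since 53.9% of genes of like brightness differed by as much as Tead2 and 64.2% by as much as Tead3.

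**Figure D3:**
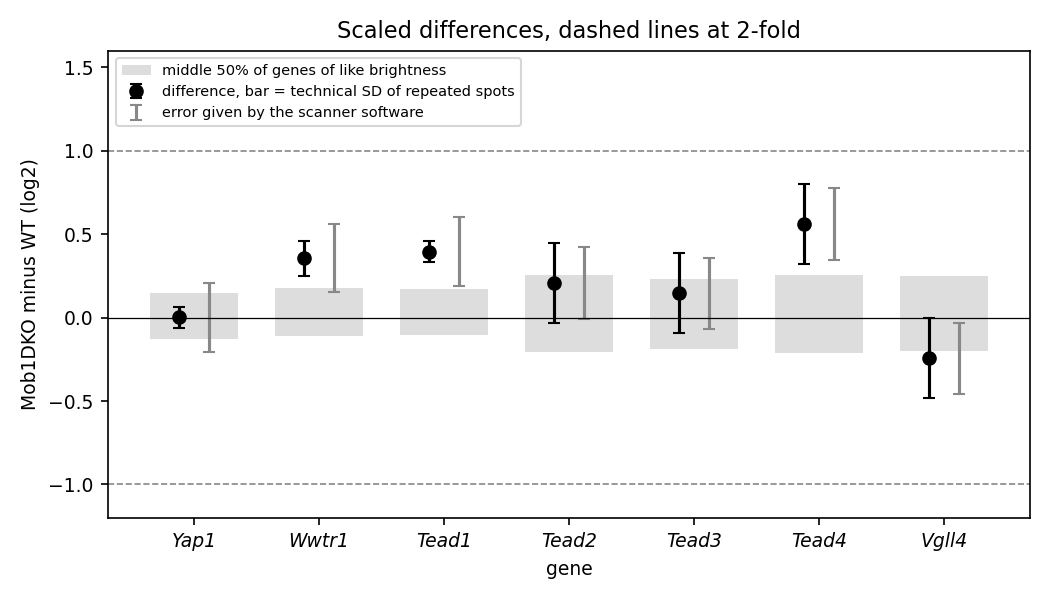
The y axis gives the log2 difference Mob1DKO minus WT after scaling, for the 7 genes well above background on both arrays. Black bars are the technical SD of a single spot, grey bars the error from the scanner software and grey boxes the middle 50% of genes of like brightness. Wwtr1 (0.36), Tead1 (0.40) and Tead4 (0.56) lie above their boxes, Vgll4 (-0.24) lies just below its box, and every point lies inside the dashed lines at 2-fold.

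Vgll4, a TEAD cofactor that competes with YAP and restrains its targets, was the measured member with a difference below 0. It gave 141 ± 14.5 in Mob1DKO cells and 88.8 ± 9.35 in WT cells, a ratio of 1.59 that lay under the 1.88 of the arrays. The scaled level was -1.05 in Mob1DKO cells and -0.80 in WT cells. The difference of -0.24 was 1.02 technical SDs in size, and 47.1% of genes of like brightness differed by as much. It lay below the median of all genes under each of 13 other ways of processing, several of which cannot move a gene against that median. Without scaling, its own value was 0.67.

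Vgll1, a cofactor known from trophoblast and some epithelial cancers, had 2 probes. They read 4.22 and 4.26 on the Mob1DKO array and 3.11 and 7.94 on the WT array. The lowest processed signals well above background were 17.0 in Mob1DKO cells and 14.1 in WT cells. Vgll3, a cofactor known from mesenchymal cells and muscle, read 11.6 ± 4.22 in Mob1DKO cells and 4.08 ± 3.14 in WT cells. All 3 probes had raw signals between 1.03 and 1.25 times their local background. No fold is given for these genes, since both arrays lie under the level at which a signal counts as measured, and RNA below that level would not be seen.

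No member passed the 2-fold rule (a log2 difference of at least 1 in size, with a signal well above background on the brighter array), and none passed at 1.5-fold. Over all 15099 genes that passed the background flag on 1 array or both, 6.7% passed the 2-fold rule and 14.8% passed at 1.5-fold. Among the 13866 genes well above background on both arrays, as the 7 members were, these shares were 2.68% and 9.93%. A count of 0 among 7 genes is near that background. The median difference of the 7 members was 0.21 and that of all genes 0.01, with the middle 50% of all genes between -0.18 and 0.19. Of the 7, 6 lay above 0, against 51.8% of all genes, and 1 of those 6 was Yap1 at 0.00. Differences of more than 2 technical SDs were seen for Wwtr1, Tead1 and Tead4, that is 3 of 7, against 35.3% of all genes. By the error of the scanner software, which was larger than the technical SD for Yap1, Wwtr1 and Tead1 and smaller for the other members, Tead4 alone of the 7 exceeded 2 errors, against 16.7% of all genes.

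The differences were set beside 13 other ways of processing, and are given here relative to the median of all genes, since scaling by itself moves every gene. Wwtr1 stayed between 0.33 and 0.46, Tead4 between 0.17 and 0.61 and Tead1 between 0.11 and 0.57, and all 3 were above 0 under each of the 13. Many of the 13 could hardly change a sign. Median, housekeeping and no scaling shift every gene alike, so relative to that median they return the reported value. The filters on dim probes and the removal of outlier spots left each member's own difference nearly unchanged. The series value table nearly repeats quantile normalization. None of the 13 took the faintest Tead1 probe, which differed by -0.22, by itself. Yap1 ranged from -0.01 to 0.19. Tead2 ranged from -0.05 to 0.26 and was above 0 under 12 of 13, and Tead3 ranged from -0.10 to 0.20 and was above 0 under 11 of 13. The series value table deposited by the authors gave 0.02 for Yap1, 0.35 for Wwtr1, 0.38 for the brightest Tead1 probe, 0.56 for Tead4 and -0.27 for Vgll4.

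**Figure D4:**
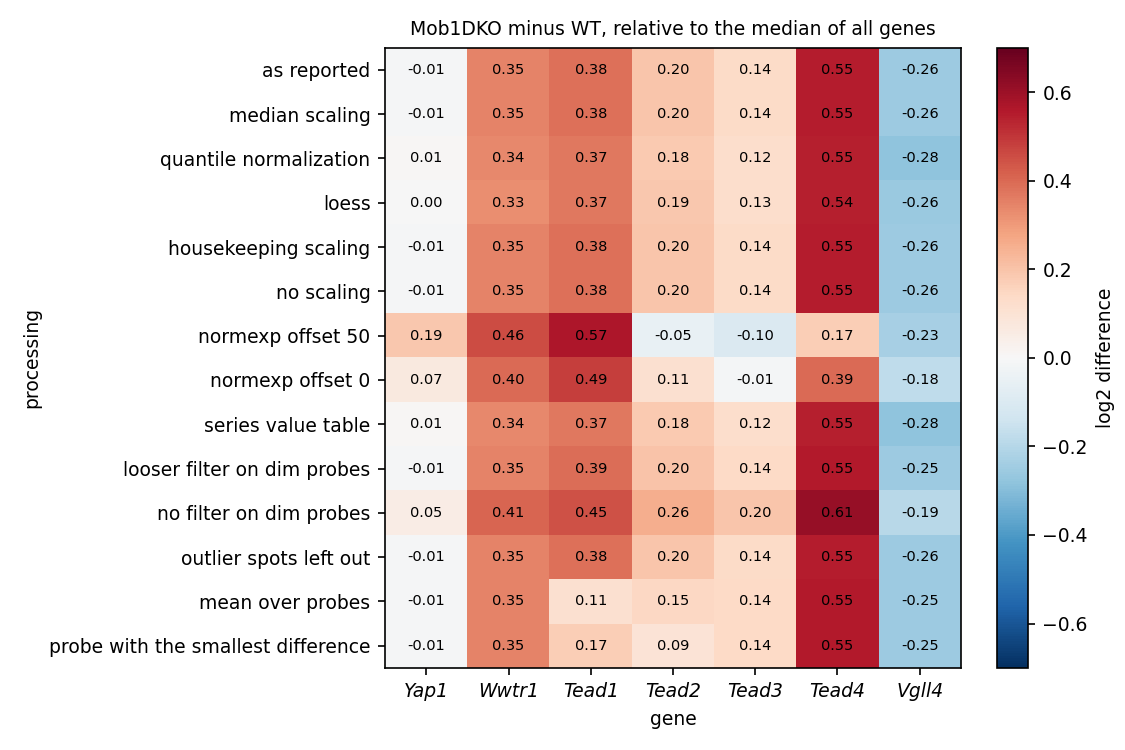
Each cell gives the log2 difference Mob1DKO minus WT of a gene (columns) under a way of processing (rows), relative to the median of all genes under that processing, with red above 0 and blue below. Wwtr1, Tead1 and Tead4 are above 0 in every row and Vgll4 is below 0 in every row. Tead2 turns below 0 under normexp with an offset of 50, and Tead3 with an offset of 50 or 0. Yap1 lies near 0 in most rows and takes both signs. The rows for median, housekeeping and no scaling repeat the row as reported.

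The other genes of the pathway were taken from lists. Of 32 listed kinases, adaptors and upstream regulators, 30 were well above background on both arrays, Mob1b was lower by the 2-fold rule and no gene was higher. Over all genes that passed the background flag on 1 array or both, 2.91% were lower and 3.79% higher by that rule. The median difference of the list was 0.14. The kinases that phosphorylate YAP and TAZ differed by -0.29 (Lats1) and 0.18 (Lats2). Of 36 listed binding partners and regulators, 34 were measured and none was called in either direction, with a median of 0.03. Their largest differences were -0.61 for Ywhaz, a 14-3-3 protein that retains phosphorylated YAP, whose probe with the smallest difference gave 0.08, and -0.58 for the T-box factor Tbx5. Nkx2-1, the lung transcription factor that TAZ is known to bind, differed by -0.01, Smad3, a signal carrier of TGF-beta, by -0.07 and Runx1, a runt-domain factor, by 0.16. Amot, which encodes angiomotin, a junction protein that binds YAP, differed by 0.49.

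Target genes of YAP, TAZ and TEAD had a median difference of 0.18 over 22 of 24 listed genes measured on both arrays. Of the 22, 18 lay above 0, against 51.8% of all genes, and the lowest was at -0.41. By the 2-fold rule 1 of 23 that passed the background flag on 1 array or both was higher, near the 3.79% of all genes. It was Igfbp3, a growth factor binding protein, with processed signals of 87.2 in Mob1DKO cells and 21.3 in WT cells (2.18-fold). The technical SD at its mean level was 0.49, against a difference of 1.13. The call was lost under normexp, where Igfbp3 differed by 0.94 with no offset and by 0.22 with the offset of 50. The matricellular targets Ccn2 and Ccn1 differed by 0.61 and 0.31. Ankrd1, a cardiac ankyrin repeat protein, passed the background flag in Mob1DKO cells and not in WT cells. Its scaled level in Mob1DKO cells was 1.54-fold above the lowest one that passed the flag on the WT array. That fold allows for no error, and the technical SD at such levels was 0.49. Under normexp Ankrd1 differed by 0.17 with no offset and by -0.26 with the offset of 50. The lists share 4 genes, and they were chosen with earlier results of these arrays known.

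**Figure D5:**
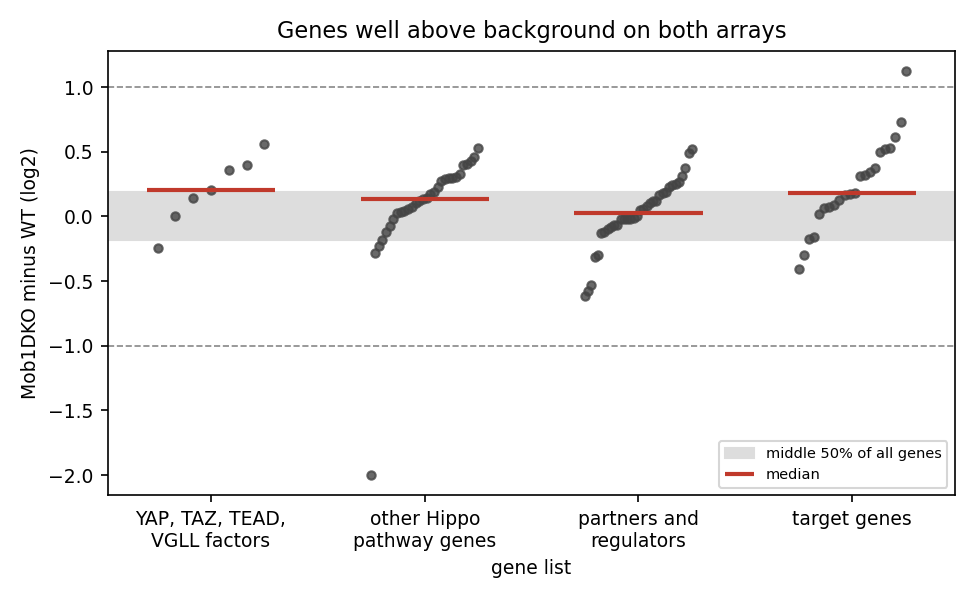
The y axis gives the log2 difference Mob1DKO minus WT, with a point for each gene well above background on both arrays, sorted within each list, and a red line at the list's median. The grey band is the middle 50% of all genes and the dashed lines mark 2-fold. The medians are 0.21 for the 7 members, 0.14 for other pathway genes, 0.03 for partners and regulators and 0.18 for targets, and Mob1b (4.0-fold lower) and Igfbp3 (1.13) lie outside the dashed lines.

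The labelled cell type was checked against marker genes. All 8 lung epithelial markers were well above background on both arrays, against 67.1% of all named genes, with a median difference of 0.00. The flag alone does not set epithelium apart, since most fibroblast and smooth muscle markers passed it too. Other cells express Yap1, Wwtr1 and the Tead genes too, so markers of those cells are given beside them, as sums of scaled linear signal. For fibroblasts and smooth muscle, 10 of 10 markers on the Mob1DKO array and 9 of 10 on the WT array were well above background, with sums of 143 in Mob1DKO cells and 157 in WT cells and a median difference of -0.27. For endothelium, 5 of 9 were above background on each array, with sums of 31.9 in Mob1DKO cells and 44.96 in WT cells, while Cdh5, Cldn5, Emcn and Tek were not above background. Most of that sum came from Kdr, with 24.7 in Mob1DKO cells and 37.5 in WT cells. For leukocytes, 3 of 7 were above background, with sums of 240 in Mob1DKO cells and 249 in WT cells, and the defining Ptprc was not. Nearly all of the leukocyte sum came from the Itgam probe, and the rest summed to 3.94 in Mob1DKO cells and 4.39 in WT cells. Within the epithelium, alveolar type 1 markers summed to 142 in Mob1DKO cells and 118 in WT cells (median difference 0.28), and type 2 markers to 4278 in Mob1DKO cells and 5981 in WT cells (-0.19). Basal markers summed to 28.6 in Mob1DKO cells and 40.5 in WT cells, with 3 of 6 lower by the 2-fold rule (Krt5, Krt15 and Krt17), and without the bright Trp63 probe they summed to 2.70 in Mob1DKO cells and 10.1 in WT cells. Of 7 goblet markers, 7 were lower, with sums of 66.9 in Mob1DKO cells and 284 in WT cells. Most of the goblet sum came from Muc5b, and the rest summed to 10.9 in Mob1DKO cells and 94.5 in WT cells. Club cell markers had a median difference of -0.84, with 1 of 5 lower and 1 higher by the rule and sums of 4401 in Mob1DKO cells and 7859 in WT cells. Ciliated cell markers had a median of 0.02 and none of 7 called, with sums of 427 in Mob1DKO cells and 421 in WT cells. Most of the ciliated sum came from the Mcidas probe, and the rest summed to 146 in Mob1DKO cells and 143 in WT cells. Of 6 red cell genes, 4 were lower, with sums of 1.33 in Mob1DKO cells and 14.0 in WT cells. Beside these marker counts, 2.91% of all genes that passed the background flag on 1 array or both were lower by the rule. The share that was higher was 3.79%. The part of these shifts in the differences of the YAP, TAZ, TEAD and VGLL factors was not tested, and in bulk RNA fewer cells of a type and less RNA per cell cannot be told apart.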

How the data were processed

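Per the labels' protocols, Cy3-labelled cRNA made from total RNA was read on Agilent 1-colour arrays, 1 for Mob1DKO and 1 for WT. The deposited scanner files give intensity values on a linear scale, extracted with Agilent Feature Extraction 10.7.1.1 per the file headers, while the submitters' processing notes name 9.5.1.1. The processed signal is background-subtracted within an array and not normalized between arrays. How the deposited series value table was made is not stated in the labels. It holds intensity values that are linear and not centred, with a median of 27.3 in each column. Quantile normalization of the scanner files' processed signal was compared with it after a constant factor per column was removed. The values then came within 0.1% for 99.5% of the probes in the Mob1DKO column and 99.2% in the WT column.

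Control spots were left out, spots of a probe averaged, and log2 taken minus the array's 75th percentile. Probes were named through unversioned RefSeq accessions on GRCm38.p6 (27235 named, 28446 unnamed), whereas the array grid is on mm9, so no gene coordinates are given. A gene's value is that of its brightest probe among those that passed the background flag on 1 array or both. Normexp (limma 3.58.1, R 4.3.3) was run on the median spot signal, since the scanner files used here hold no mean signal. The functions were tested on simulated data. The members and lists were chosen with earlier results of these data known. Named genes are the members, Mob1a, Mob1b, the called or else the 2 most different genes of each pathway list, and a fixed set of partners and targets. Marker lists are given by counts and sums. The sex-linked genes, Jun and F3 were named beyond this rule.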

Additional observations from a re-analysis of the deposited data

How the results depend on the processing

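Arrays were also left unscaled, or were scaled by quantiles, by their medians, by loess with a span of 0.3 or by 10 housekeeping genes. Further alternatives were normexp with an offset of 50 or 0, the series value table, a looser or no filter on dim probes, removal of outlier spots, other rules for several probes, and a call at 1.5-fold. Of 91 values of the 7 measured members under 13 alternatives, 73 moved by no more than the technical SD, and 18 moved by more. Of these 7 members, any were called only without scaling. Across the 91 values, 5 changed sign. They were Yap1 (-0.015 under median scaling), Vgll4 (0.67 unscaled) and Tead2 (-0.019 with the normexp offset of 50). The rest were those of Tead3, at -0.073 with that offset and -0.0045 with none. Without scaling, the median of all genes shifts to 0.92, and with it the members' median to 1.12, the called members to 5, the genes called to 41.9%, and the list medians to 1.05 (other pathway genes), 0.94 (partners and regulators) and 1.09 (targets). Housekeeping scaling shifts the median of all genes to 0.16. The genes called came to 1.80% with the normexp offset of 50, 3.80% with no offset, 10.9% with the looser filter and 14.8% at 1.5-fold. With the looser filter or none, 1 member was called, Vgll1, which was lower on the Mob1DKO array from signals not well above background; the cause of the other changes was not tested. Signal over background limits Vgll1, Vgll3, the faintest Tead1 probe and Mob1a. The Mob1a difference was -0.42 with the normexp offset of 50 and -0.26 with none. No paired analysis was possible because each group holds 1 array.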

Other observations

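The TEAD motif core was also counted in the promoter windows of the pathway lists. It was present for 8 of 18 target genes of YAP, TAZ and TEAD with a window, or 44.4%, for 7 of 27 other Hippo pathway genes, or 25.9%, and for 3 of 23 partners and regulators, or 13.0%. Over all genes it was present for 16.6%. Genes that passed the background flag on 1 array or both held it in 15.1% of cases and the other genes on the array in 15.6%. CpG sites went with detection across genes: of 8682 genes with a window of at least 15 CpG sites, 89.9% passed the background flag on 1 array or both, against 48.4% of 5389 genes with a window of at most 5.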
